A study of Mus musculus with 12 samples.

Results

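T helper 1 (Th1) genes were described in mouse CD4+ T cells that lacked or carried Rinl, whose product activates RAB5 family GTPases of early endosomes. The set held 8 genes, Tbx21, Ifng, Cxcr3, Il12rb1, Il12rb2, Stat4, Hlx and Runx3, taken by symbol from tables of 55487 genes, and all 8 were found. The 4 groups, of 3 libraries each, were Rinl knockout effector cells (KO effector), wild-type effector cells (WT effector), Rinl knockout naive cells (KO naive) and wild-type naive cells (WT naive). All were sorted by flow cytometry, directly from the animals, out of spleen and peripheral lymph nodes. The effector gate was CD44hi, so it can also hold memory, regulatory and innate-like T cells, and the naive gate was CD44lo. The sources used here give neither the design of the knockout allele nor the strain and age of the mice, and they do not say whether the 3 libraries come from different animals. The p-values therefore measure only the spread between these libraries, which may be technical.

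Th1 cells serve responses to intracellular microbes, and their signature product is interferon gamma, encoded by Ifng. Interleukin-12 binds a receptor built of the chains encoded by Il12rb1 and Il12rb2 and activates the transcription factor STAT4 through the kinases TYK2 and JAK2. T-bet, encoded by Tbx21, is the lineage factor: it acts on Ifng, Cxcr3 and Il12rb2, and the factors encoded by Runx3 and Hlx work with it. Naive cells carry little of the T-bet programme, while sorted effector populations are a mixture of helper fates.

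The promoters of the lineage factor, the inducible receptor chain, the cytokine and the chemokine receptor are shown because these genes are the core of the programme that T-bet runs and were near 0 in naive cells and clearly expressed in effector cells. The sequences are from RefSeq (GRCm38.p6) and run 5′ to 3′ on the strand of the gene, from 250 bases before to 50 bases after its start. They lie at chr11:97115282-97115581 (minus strand) for Tbx21, chr6:67376139-67376438 (minus strand) for Il12rb2, chr10:118440796-118441095 (plus strand) for Ifng and chrX:101734098-101734397 (minus strand) for Cxcr3. Capitals mark matches on either strand to the T-box core GGTGTG, the Runx core TGTGGT or the STAT dimer site TTCNNNGAA.
Tbx21: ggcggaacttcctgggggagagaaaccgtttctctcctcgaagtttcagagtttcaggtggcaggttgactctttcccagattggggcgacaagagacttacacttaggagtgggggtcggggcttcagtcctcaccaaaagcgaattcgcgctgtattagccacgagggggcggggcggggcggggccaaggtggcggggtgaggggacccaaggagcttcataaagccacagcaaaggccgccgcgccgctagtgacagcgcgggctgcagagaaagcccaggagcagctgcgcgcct
Il12rb2: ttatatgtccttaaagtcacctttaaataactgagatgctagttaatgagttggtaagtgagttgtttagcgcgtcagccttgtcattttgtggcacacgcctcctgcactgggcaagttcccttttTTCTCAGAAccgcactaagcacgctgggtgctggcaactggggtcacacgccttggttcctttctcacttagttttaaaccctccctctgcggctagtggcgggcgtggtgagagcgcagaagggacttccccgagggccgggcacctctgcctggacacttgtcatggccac
Ifng: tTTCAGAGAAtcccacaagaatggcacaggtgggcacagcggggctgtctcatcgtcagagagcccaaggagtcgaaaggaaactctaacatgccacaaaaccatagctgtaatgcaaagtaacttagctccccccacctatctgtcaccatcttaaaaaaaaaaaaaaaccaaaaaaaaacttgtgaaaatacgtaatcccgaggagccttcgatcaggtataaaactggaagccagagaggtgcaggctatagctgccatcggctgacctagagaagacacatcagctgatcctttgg
Cxcr3: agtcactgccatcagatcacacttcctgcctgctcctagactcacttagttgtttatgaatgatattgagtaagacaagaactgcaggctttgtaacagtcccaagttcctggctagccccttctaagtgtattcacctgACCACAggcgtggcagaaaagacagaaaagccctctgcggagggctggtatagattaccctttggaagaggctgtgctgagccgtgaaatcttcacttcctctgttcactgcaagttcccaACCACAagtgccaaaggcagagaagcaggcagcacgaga

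Promoter windows were found for 7 of the 8 genes, 9 windows of 300 bases in all; Il12rb1 is the gene without one. The T-box core was in the windows of 0 of these 7 genes, where 19.0% of 32851 promoter windows of the same length held it. The Runx core was in those of 2 genes, Cxcr3 and Runx3, and in 16.8% of all windows. The STAT site was in those of 2 genes, Ifng and Il12rb2, and in 8.3% of all windows. The T-box and Runx cores can share letters, but no matches of different motifs overlapped here. A match describes letters in a short window, not a bound site.

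Libraries held 11606251 to 24320247 counts. Rinl was at 45.8 to 49.4 CPM, read counts scaled to the same library total, in KO effector libraries against 437 to 463 CPM in WT effector libraries, and at 32.2 to 34.4 CPM in KO naive against 285 to 299 CPM in WT naive libraries. Cd4 stood between 935 and 1060 CPM in all 12 libraries, and Cd8a stayed below 0.6 CPM. The other listed CD8 marker, Cd8b1, was detected in all groups. It was at 7.13 to 7.87 CPM in KO effector and 5.30 to 6.58 CPM in WT effector libraries. In naive libraries Cd8b1 was higher, at 19.4 to 21.4 CPM in KO and 19.3 to 20.5 CPM in WT. Cd44 was at 221 to 239 CPM in KO effector, 254 to 259 CPM in WT effector, 17.1 to 21.1 CPM in KO naive and 17.2 to 19.98 CPM in WT naive libraries.

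The Th1 genes were higher in effector than in naive cells, by amounts that ranged from less than 1 to more than 9 on the log2 scale. The T-bet programme was almost confined to effector libraries by level, whereas Stat4 and Runx3 were well expressed in naive cells too. Tbx21 was at 65.6, 59.4 and 60.5 CPM in the KO effector libraries and 79.0, 107 and 94.5 CPM in the WT effector libraries, but at 0.561, 0.510 and 0.410 CPM in the KO naive and 0.316, 0.430 and 0.249 CPM in the WT naive libraries. Cxcr3, the chemokine receptor that guides Th1 cells to inflamed tissue, was at 155 to 171 CPM in KO effector and 169.5 to 218 CPM in WT effector libraries against 0.259 to 0.820 CPM in KO naive and 0.158 to 0.498 CPM in WT naive libraries. Effector and naive libraries of these genes did not come near each other. The naive mean of Runx3 was 70.0% of the effector mean in KO and 66.7% in WT cells, and that of Stat4 was 58.8% in KO and 61.6% in WT cells. For Tbx21 those shares were 0.799% in KO cells, from 33 naive counts in all, and 0.355% in WT cells, from 17.

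**Figure D1:**
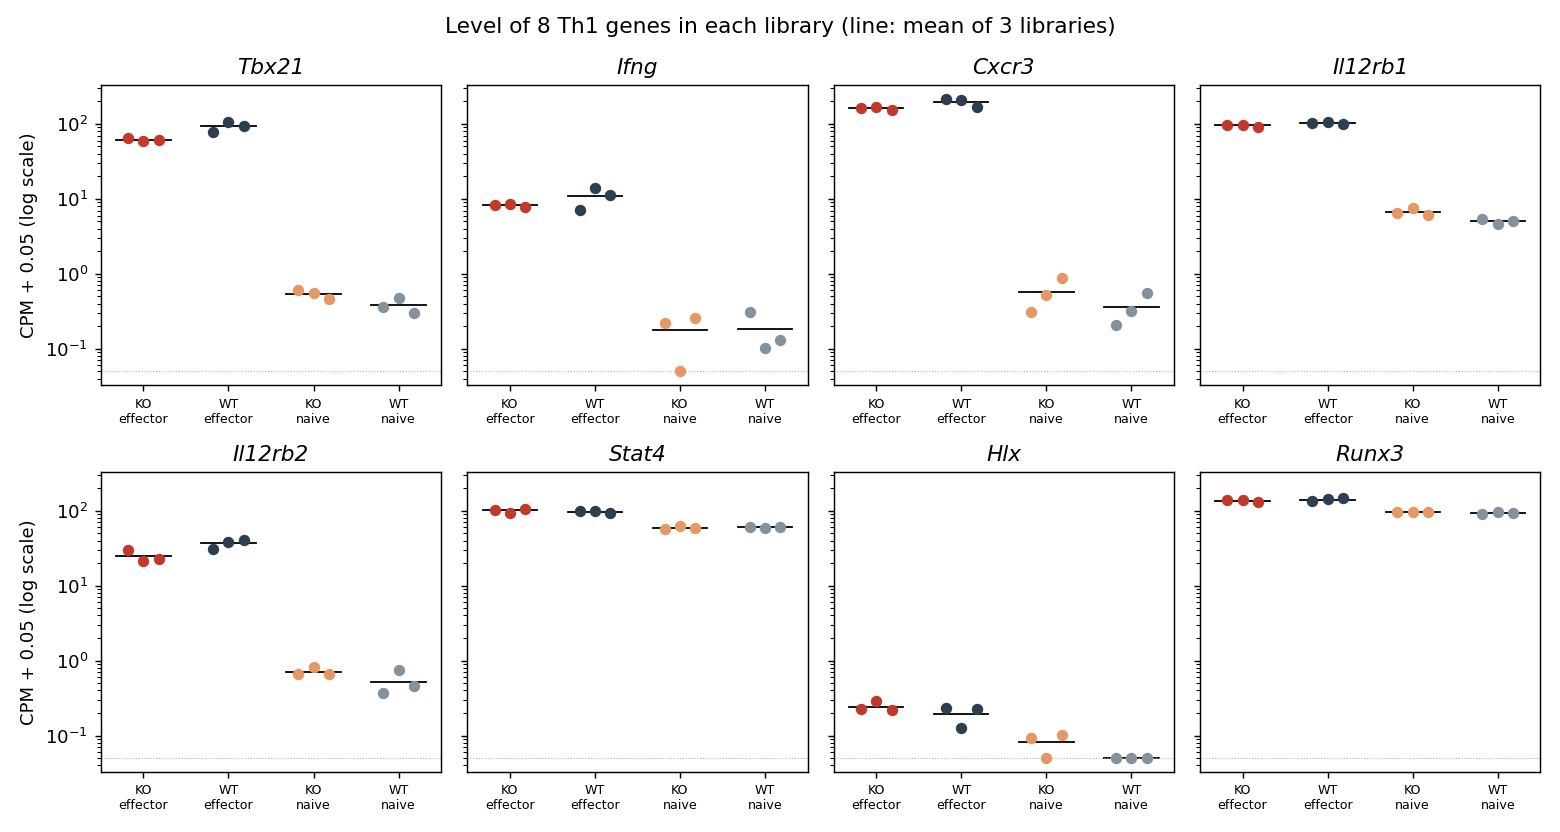
Level of each Th1 gene in every library, as TMM-normalised CPM + 0.05 on a log axis, in KO effector, WT effector, KO naive and WT naive cells; points are libraries and short lines are means of 3, and the dotted line marks a count of 0. Stat4 and Runx3 are high in all 4 groups, Il12rb1 is intermediate in naive cells, and Hlx stays below 0.3 CPM throughout.

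The filter on low counts bears on how this contrast can be read. The cutoff of 0.558 CPM applies to CPM without the TMM factors, so it cannot be set directly against the CPM given elsewhere. Il12rb1, Stat4 and Runx3 passed the cutoff in all 12 libraries, and Il12rb2 in all effector, all KO naive and 1 WT naive libraries. Tbx21 and Ifng passed it in effector libraries alone, and Cxcr3 in those and 1 KO naive library, so these 3 genes were bound to differ from naive cells. Hlx passed in no library and was not tested. Of the 7 genes tested, 7 were called higher in effector cells of either genotype, where 31.6% of 15905 tested genes were called higher in KO and 30.2% in WT cells. That count includes the 3 genes bound to differ, and Il12rb2, which passed in only 1 WT naive library. It is therefore a description and cannot be weighed against those shares.

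Among the genes that passed the cutoff in all 12 libraries, Il12rb1, the receptor chain shared with the interleukin-23 receptor, had the largest difference. It rose in effector cells by a log2 fold change of 3.84 ± 0.072 (SE) in KO (edgeR adjusted p = 2.29e-22) and 4.38 ± 0.079 in WT (edgeR adjusted p = 1.37e-22). Stat4 rose by 0.76 ± 0.053 in KO (edgeR adjusted p = 1.14e-11) and 0.70 ± 0.055 in WT (edgeR adjusted p = 9.90e-11). Runx3, which in T cells is best known from CD8 T cells and Th1 cells, rose by 0.52 ± 0.046 in KO (edgeR adjusted p = 7.22e-10) and 0.58 ± 0.046 in WT (edgeR adjusted p = 1.20e-10). Il12rb2, the signalling chain that activated T cells induce, rose by 5.20 ± 0.20 in KO (edgeR adjusted p = 2.47e-14). Its KO naive level rests on 12 to 18 counts per library, close to the cutoff. In WT the fitted value of Il12rb2 was 6.23 ± 0.22. That value is only a description, because Il12rb2 passed the cutoff in 1 WT naive library and had 5 to 13 counts per library there.

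For the 3 genes that had to differ, the fitted log2 fold changes serve as a description. They were 6.93 in KO and 8.06 in WT for Tbx21, 8.33 in KO and 9.42 in WT for Cxcr3, and 6.01 in KO and 6.17 in WT for Ifng. In KO cells 33 tested genes had a higher fitted value than Cxcr3 and 135 a higher one than Tbx21. In WT cells those numbers were 21 and 87. Hlx, a homeobox factor, had 10 counts over the 3 KO effector libraries, 7 over the WT effector, 2 over the KO naive and 0 over the WT naive libraries.

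**Figure D2:**
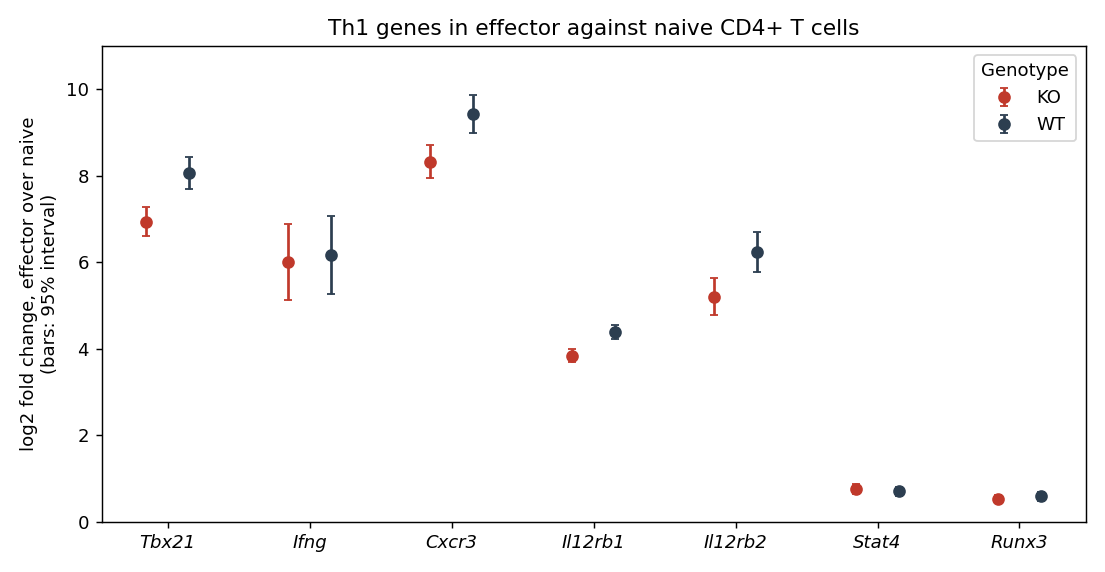
Log2 fold change of effector over naive cells for the 7 tested Th1 genes, in KO and WT cells; bars are 95% intervals of the edgeR fit. Stat4 and Runx3 lie below 1 and the others above 3.

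Per length, as FPKM, Cxcr3 stood first in effector cells, at 93.2 ± 4.58 FPKM in KO and 114 ± 14.5 FPKM in WT libraries (SD, n = 3 each). In KO effector libraries Il12rb1 at 33.1 ± 1.24, Runx3 at 32.3 ± 1.09 and Stat4 at 31.96 ± 1.89 FPKM came next, with overlapping ranges, and Tbx21 followed at 24.7 ± 1.36 FPKM, below all of them. In WT effector libraries Tbx21 came directly after Cxcr3, at 37.3 ± 5.45 FPKM, and overlapped Il12rb1 at 35.7 ± 1.08 FPKM, which overlapped Runx3 at 33.5 ± 1.39 FPKM. The place of Tbx21 in the order thus differed between the genotypes, and that of Cxcr3 did not. Ifng and Il12rb2 overlapped each other in either genotype: Ifng was at 6.35 to 7.10 FPKM in KO effector and 5.82 to 11.4 FPKM in WT effector libraries, and Il12rb2 at 5.56 to 7.84 FPKM in KO effector and 8.18 to 10.6 FPKM in WT effector libraries. Hlx was last, at 0.0848 ± 0.0177 FPKM in KO effector and 0.0635 ± 0.0269 FPKM in WT effector libraries. In naive cells of either genotype Runx3, Stat4 and Il12rb1 led in that order without overlap, and Cxcr3, Tbx21, Il12rb2 and Ifng followed, each overlapping the next.

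In effector cells, Tbx21 and Il12rb2 were lower in KO than in WT, by about the same log2 amount, and the other 5 tested Th1 genes did not pass the test. Tbx21 was at 65.6, 59.4 and 60.5 CPM in the KO effector libraries against 79.0, 107 and 94.5 CPM in the WT effector libraries. The KO values lay close together and below every WT value. The log2 fold change of Tbx21 (ENSMUSG00000001444, GRCm38 chromosome 11, 97098071 to 97115331, minus strand) was -0.59 ± 0.079 (95% interval -0.76 to -0.43, edgeR adjusted p = 1.87e-04). The call was lost in 1 of 20 alternative settings, limma on log2(FPKM + 0.1), with an adjusted p of 0.084. Fewer Th1 cells in the sort and less Tbx21 RNA in each cell cannot be told apart in bulk libraries, and this holds for every difference given here.

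Il12rb2 (ENSMUSG00000018341, GRCm38 chromosome 6, 67291318 to 67376188, minus strand) was at 29.9, 21.2 and 22.9 CPM in the KO effector libraries against 31.2, 38.7 and 40.3 CPM in the WT effector libraries. The groups did not overlap, but the highest KO library came close to the lowest WT library. Its log2 fold change was -0.57 ± 0.12 (95% interval -0.82 to -0.33, edgeR adjusted p = 0.00946). The call was lost without KO effector library 11 (edgeR adjusted p = 0.0614), without WT effector library 6 (0.0592), in a fit of the effector libraries alone (0.0851) and with limma on log2 FPKM (0.0504 with 1 added, 0.183 with 0.1 added). Il12rb2 shares 6419 bases with Serbp1 on the opposite strand in GENCODE M21, and the sources used here do not say whether counting took strand into account. Serbp1 was at 324 to 352 CPM in KO effector and 332 to 357 CPM in WT effector libraries, and above 360 CPM in naive libraries, where Il12rb2 was below 0.8 CPM.

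Il12rb1, the other chain of the receptor, did not pass in effector cells. It was at 97.0, 98.1 and 91.5 CPM in KO effector and 104, 106 and 99.7 CPM in WT effector libraries. These ranges did not overlap, but the log2 fold change was only -0.11 (95% interval -0.22 to 0.0013, edgeR adjusted p = 0.318). Per length, Il12rb2 was 23.3%, 16.4% and 19.0% of Il12rb1 in the KO effector libraries and 22.6%, 27.7% and 30.6% in the WT effector libraries. The ratios overlapped between the genotypes, and an exact two-sided permutation test gave p = 0.2, where 3 libraries against 3 cannot go below 0.1.

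Stat4 and Runx3 did not pass either, and their intervals were narrow. Stat4 was at 103, 94.4 and 106 CPM in KO effector and 97.8, 100.2 and 93.6 CPM in WT effector libraries (log2 fold change 0.054, 95% interval -0.056 to 0.16, edgeR adjusted p = 0.686). Runx3 was at 138, 138 and 130.2 CPM in KO effector and 134, 142 and 146 CPM in WT effector libraries (log2 fold change -0.054, 95% interval -0.15 to 0.040, edgeR adjusted p = 0.618). The ranges of both genes overlapped between the genotypes. Stat4 shares 432 bases with Gm3940 on the opposite strand, at 10.3 to 22.5 CPM over all libraries. Hlx had 3, 5 and 2 counts in the KO effector and 3, 1 and 3 in the WT effector libraries, and a difference was not detectable at this depth.

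Ifng and Cxcr3, which T-bet acts on, had fitted values below 0 and did not pass. Ifng was at 8.23, 8.62 and 7.71 CPM in the KO effector libraries and 7.06, 14.0 and 11.1 CPM in the WT effector libraries. The WT values spread widely, and the lowest of them lay below all KO values. The log2 fold change was -0.37 ± 0.21 (95% interval -0.83 to 0.082, edgeR adjusted p = 0.434). Ifng shares 2722 bases with Gm49751 on the same strand, which reached at most 1.62 CPM in any library. Cxcr3 was at 161, 171 and 155 CPM in the KO effector and 218, 207 and 169.5 CPM in the WT effector libraries, where the lowest WT library fell within the KO range. Its log2 fold change was -0.29 ± 0.088 (95% interval -0.48 to -0.10, edgeR adjusted p = 0.111). Cxcr3 passed in 3 of 20 alternative settings: DESeq2 (adjusted p = 0.0321), no filter on low counts (8.72e-06) and the fit without WT effector library 6 (0.00417), which is the library that overlapped.

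In all, 2 of the 7 tested Th1 genes were called lower and 0 higher in KO effector cells, where 1.72% of all tested genes were called lower and 1.45% higher. The libraries of 3 of the 7 lay wholly below those of WT, which held for 8.73% of all tested genes. The median log2 fold change was -0.29 over the 7 and 0.0022 over all tested genes.

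**Figure D3:**
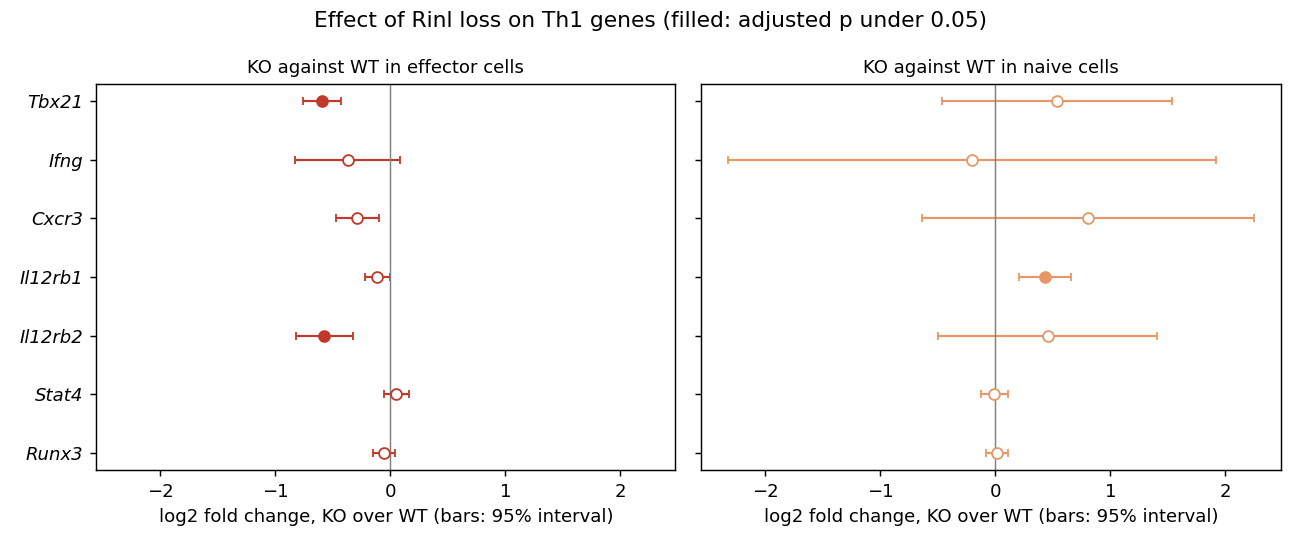
Log2 fold change of KO over WT for the 7 tested Th1 genes in effector (left) and naive cells (right), with 95% intervals of the edgeR fit; filled points have an adjusted p under 0.05. Tbx21 and Il12rb2 are called lower in effector cells and Il12rb1 higher in naive cells, and the naive intervals of Tbx21, Ifng, Cxcr3 and Il12rb2 are wide.

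In naive cells 1 of the 7 tested Th1 genes was called, Il12rb1, and it was higher in KO. Il12rb1 (ENSMUSG00000000791, GRCm38 chromosome 8, 70808449 to 70821424, plus strand) was at 6.39, 7.53 and 6.04 CPM in the KO naive libraries against 5.26, 4.57 and 5.06 CPM in the WT naive libraries. The groups did not overlap, and all were below 8 CPM, far under the effector level. The log2 fold change was 0.43 ± 0.11 (95% interval 0.21 to 0.65), and its edgeR adjusted p of 0.0482 lay just under the threshold of 0.05. The call was lost in 12 of 20 alternative settings, with adjusted p up to 0.287: limma-voom, the fit of the naive libraries alone, limma on either log2 FPKM scale, and the fits without KO effector library 10, WT effector library 4 or 6, KO naive library 7 or 8, or any 1 of the WT naive libraries. Over all tested genes 0.679% were called higher in KO naive cells, and the libraries of 10.7% lay wholly above those of WT.

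The inducible genes were near their limit of detection in naive cells. Tbx21 was at 0.561, 0.510 and 0.410 CPM in the KO naive and 0.316, 0.430 and 0.249 CPM in the WT naive libraries, from 8 to 13 counts per KO library and 3 to 8 per WT library. The ranges overlapped, and the log2 fold change of 0.53 had a 95% interval of -0.47 to 1.54 (edgeR adjusted p = 0.73). Il12rb2 was at 0.604 to 0.765 CPM in KO naive and 0.316 to 0.698 CPM in WT naive libraries (edgeR adjusted p = 0.765), and Cxcr3 at 0.259 to 0.820 CPM in KO naive and 0.158 to 0.498 CPM in WT naive libraries (edgeR adjusted p = 0.708). Their 95% intervals, -0.50 to 1.41 and -0.63 to 2.25 on the log2 scale, leave room for changes of either sign. Ifng had 4, 0 and 4 counts in the KO naive and 5, 1 and 1 in the WT naive libraries, and a difference was not detectable. The 0 counts of Hlx over the WT naive libraries allow a level of up to 0.0604 CPM over that group.

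Stat4 and Runx3, which naive cells express, did not pass and had narrow intervals. Stat4 was at 57.3, 63.2 and 57.9 CPM in KO naive and 61.3, 58.1 and 60.3 CPM in WT naive libraries (95% interval of the log2 fold change -0.12 to 0.11, edgeR adjusted p = 0.976). Runx3 was at 94.9, 94.7 and 94.8 CPM in KO naive and 90.7, 96.6 and 94.3 CPM in WT naive libraries (95% interval -0.081 to 0.11, edgeR adjusted p = 0.946). The KO values of Runx3 lay within the WT range. The median log2 fold change over the 7 was 0.43, and 0 over all tested genes.

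Whether the effect of Rinl loss differed between effector and naive cells was tested directly, and 0 of the 7 Th1 genes passed with edgeR, where 0.145% of all tested genes did. At an unadjusted edgeR p under 0.05 there were 3, where 1461 of all 15905 tested genes had such a p. Il12rb1 had a difference, effector minus naive, of -0.54 (unadjusted p = 1.65e-04, edgeR adjusted p = 0.0673), Tbx21 of -1.13 (unadjusted p = 0.0311, edgeR adjusted p = 0.476) and Il12rb2 of -1.03 (unadjusted p = 0.0406, edgeR adjusted p = 0.507). Il12rb1 passed in 2 of 19 alternative settings, DESeq2 (adjusted p = 0.0366) and no filter on low counts (0.00412). No other Th1 gene passed in any of the 19. The naive values of Tbx21 rest on 8 to 13 counts per KO and 3 to 8 per WT library. Those of Il12rb2 rest on 12 to 18 counts per KO and 5 to 13 per WT library.

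Around these 8 genes, 20 further Th1 effector and T-bet-linked genes were described from a list. All 20 were tested, and 8 were called lower and 0 higher in KO effector cells, beside 1.72% lower and 1.45% higher of all tested genes, with a median log2 fold change of -0.21 over the list. Nkg7, which encodes a membrane protein of cytotoxic granules, averaged 99.2 ± 9.23 CPM in KO effector and 148 ± 13.9 CPM in WT effector libraries (SD, n = 3 each; log2 fold change -0.57 ± 0.071, edgeR adjusted p = 1.14e-04). Ccl5, a chemokine of effector T cells, averaged 206 ± 13.7 CPM in KO effector and 268 ± 23.1 CPM in WT effector libraries (-0.38 ± 0.067, edgeR adjusted p = 0.00424), and it lost its call with limma on log2(FPKM + 1) (adjusted p = 0.246) and log2(FPKM + 0.1) (0.563). Fasl, which encodes the death ligand of T cells, averaged 28.7 ± 3.16 CPM in KO effector and 38.3 ± 1.82 CPM in WT effector libraries (-0.42 ± 0.087, edgeR adjusted p = 0.0073), and lost its call without KO effector library 11 (adjusted p = 0.0771) and with limma on log2(FPKM + 1) (0.0601) and log2(FPKM + 0.1) (0.107). On log2(FPKM + 0.1) Nkg7 lost its call too (adjusted p = 0.126). The count of 8 depended on the scale and on single libraries: it was 4 with limma on log2(FPKM + 1) and 0 on log2(FPKM + 0.1), 3 without KO effector library 11, 5 without KO effector library 12, 4 without WT effector library 5 and 4 without WT effector library 6. In naive cells 1 of the 20 was called higher and 0 lower, beside 0.679% of all tested genes called higher. That gene was Ccl5, at 1.47, 1.15 and 1.95 CPM in KO naive against 0.210, 0.537 and 0.498 CPM in WT naive libraries (1.88 ± 0.37, edgeR adjusted p = 0.0157). Its call was lost without KO naive library 7 or 9, without WT naive library 1 or 2 and with limma-voom, at adjusted p up to 0.0857. The naive count called higher on this list was 3 with DESeq2. Over 20 alternative settings that count ran from 0 to 3 and differed from 1 in 8 settings, while the count called lower stayed at 0.

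Of the genes of interleukin-12, interleukin-18 and interferon gamma signalling, 12 were tested. In KO naive cells 2 were called higher and 0 lower, beside 0.679% and 0.497% of all tested genes. In KO effector cells 1 was called higher and 0 lower, beside 1.45% and 1.72%. Over 20 alternative settings the naive count called higher ran from 0 to 4, and either effector count from 0 to 2. Irf1, an interferon-induced transcription factor, was at 350.1, 360.0 and 333 CPM in KO naive against 299, 283 and 293 CPM in WT naive libraries, and it rose in KO naive cells (log2 fold change 0.25 ± 0.046, edgeR adjusted p = 0.00516). That call was lost with limma on log2(FPKM + 1) (adjusted p = 0.0534). Irf1 did not pass in effector cells (log2 fold change 0.052, edgeR adjusted p = 0.641). Between effector and naive cells, 7 of the 12 were called higher and 3 lower in KO, and 9 higher and 3 lower in WT. Over all tested genes, 26.8% were called lower in KO and 25.9% in WT, beside the 31.6% and 30.2% called higher, so the share of the list called lower is near the background. The chains of the interferon gamma receptor moved apart there: Ifngr1 had log2 fold changes of 0.87 in KO and 0.88 in WT (edgeR adjusted p = 8.41e-14 and 8.95e-14), and Ifngr2 of -1.67 in KO and -1.82 in WT (edgeR adjusted p = 5.65e-17 and 2.69e-17).

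Factors on a list of other helper fates, Runx partners and further T cell regulators mostly did not pass at the adjusted threshold. Of 11 tested, 1 was called higher and 0 lower in KO effector cells, beside 1.45% higher and 1.72% lower of all tested genes. In KO naive cells edgeR called 0 in either direction, where 1.18% of all tested genes were called. There 3 of the 11 had an unadjusted edgeR p under 0.05, as did 1885 of all 15905 tested genes. For effector cells such a p was found for 5 of the 11 and for 2560 of all 15905. The effector libraries of 2 of the 11 lay wholly higher in KO and those of 1 wholly lower. Over all tested genes 9.18% lay wholly higher and 8.73% wholly lower. Foxp3, the factor of regulatory T cells, was at 456, 483 and 408 CPM in KO effector against 393, 323 and 343 CPM in WT effector libraries (0.35 ± 0.069, edgeR adjusted p = 0.0101), and it lost its call in 4 of 20 alternative settings, which include the fits without KO effector library 11 (adjusted p = 0.0656) and without WT effector library 6 (0.0653). Foxp3 was not called in naive cells, where it was at 55.4 to 60.1 CPM in KO against 45.4 to 50.7 CPM in WT libraries. Gata3 of T helper 2 cells had a log2 fold change of -0.021 in effector cells (edgeR adjusted p = 0.897) and Bcl6 of follicular helper cells of 0.34 (0.167).

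**Figure D4:**
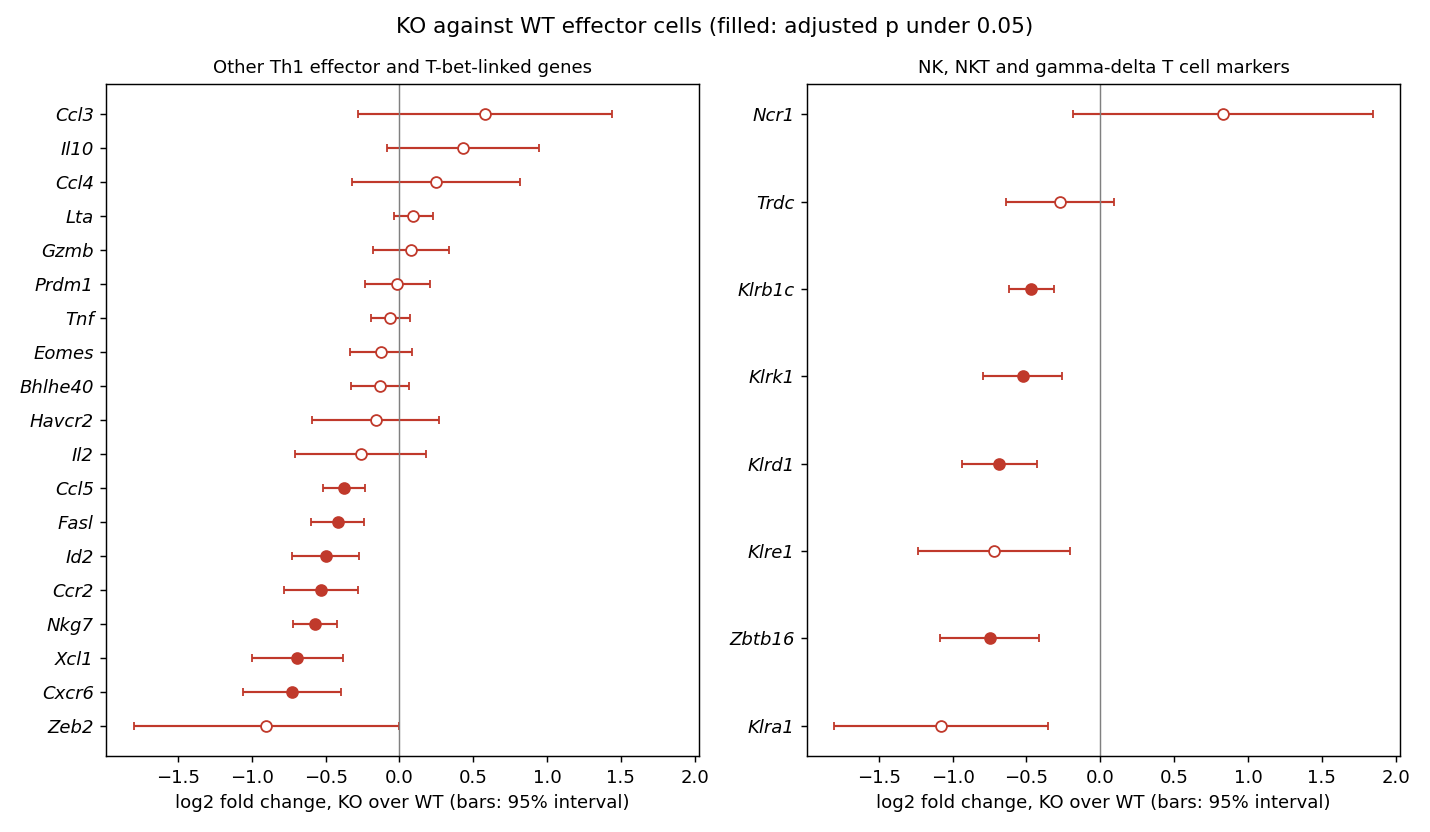
Log2 fold change of KO over WT in effector cells for 19 further Th1 effector and T-bet-linked genes (left) and the 8 tested markers of innate-like lymphocytes (right), with 95% intervals of the edgeR fit; filled points have an adjusted p under 0.05. One called gene of the list of 20 is not drawn. The 7 filled points on the left and 4 on the right all lie below 0.

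Some markers of innate-like lymphocytes fell in KO effector cells as Tbx21 and Il12rb2 did. Of the 8 tested markers on a list for gamma-delta T, NKT and NK cells, 4 were called lower and 0 higher in KO effector cells, beside 1.72% and 1.45% of all tested genes. The libraries of 6 of the 8 lay wholly below those of WT, beside 8.73% of all tested genes. The count of 4 was 2 without KO effector library 11, without KO naive library 7, 8 or 9 and with only the groups compared, and 1 with limma on log2(FPKM + 0.1). The summed level of the 9 markers found was 137 to 181 CPM in KO effector libraries against 219 to 228 CPM in WT effector libraries. Zbtb16, which encodes the factor PLZF of NKT cells, was at 31.8, 22.6 and 21.3 CPM in KO effector against 40.7, 50.7 and 37.0 CPM in WT effector libraries (-0.75 ± 0.15, edgeR adjusted p = 0.0243). Zbtb16 lost its call in 6 of 20 alternative settings, without KO effector library 11 (adjusted p = 0.126), without KO naive library 7, 8 or 9 (0.0538, 0.0503 and 0.0577), with only the groups compared (0.108) and with limma on log2(FPKM + 0.1) (0.075). Klrb1c, the NK1.1 receptor gene, was at 62.8, 51.0 and 54.5 CPM in KO effector against 82.4, 70.5 and 79.3 CPM in WT effector libraries (-0.47 ± 0.074, edgeR adjusted p = 7.65e-04), and it lost its call with limma on log2(FPKM + 0.1) (adjusted p = 0.145). Ncr1, a defining gene of NK cells, was not called, at 0.586 to 0.870 CPM in KO effector and 0.123 to 0.821 CPM in WT effector libraries. Cells of these kinds express Tbx21 and Il12rb2 too, and the part of the markers in the result was not tested. Cd44 was also lower in every KO effector library than in every WT one, with a log2 fold change of -0.16 (edgeR adjusted p = 0.084).

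In naive cells the same summed level was 21.2 to 23.9 CPM in KO and 22.6 to 26.7 CPM in WT libraries. EdgeR and DESeq2 called 0 of the 8 tested markers in either direction, where edgeR called 1.18% of all tested genes. Over 20 alternative settings the number of listed markers called higher ran from 0 to 3 and was above 0 in 3 settings. The number called lower ran from 0 to 1 and was above 0 in 2 settings. An unadjusted edgeR p under 0.05 was found for 4 of the 8 and for 1885 of all 15905 tested genes. Klrd1 and Trdc made up most of that sum, at 10.1 to 12.2 and 9.84 to 11.6 CPM in KO naive and 12.9 to 15.8 and 8.79 to 12.2 CPM in WT naive libraries. The libraries of 5 of the 8 lay wholly higher in KO naive cells and those of 1 wholly lower. Over all tested genes 10.7% lay wholly higher and 9.72% wholly lower. The median log2 fold change of the 8 was 1.73. Those 5 markers rest on low values. Klrk1 was at 0.461 to 0.638 CPM in KO naive against 0 to 0.269 CPM in WT naive libraries. Klrb1c was at 0.205 to 0.340 CPM in KO naive against 0 to 0.0526 CPM in WT naive libraries. In those libraries Zbtb16 had 0 counts in all WT and 1 to 2 per library in KO, so its fitted fold change, which is part of that median, is no bound. The summed B cell markers were at 4.15 to 5.74 CPM in KO naive against 2.05 to 3.33 CPM in WT naive libraries, and the summed myeloid markers at 15.9 to 24.7 CPM in KO naive against 7.10 to 16.3 CPM in WT naive libraries. In effector cells the B cell sum was 12.9 to 17.4 CPM in KO and 10.2 to 15.5 CPM in WT libraries, and the myeloid sum 19.3 to 31.1 CPM in KO and 5.34 to 25.6 CPM in WT libraries. The part of these markers in the naive values of Il12rb1 and Ccl5 was not tested.

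Over the 12 libraries, the genes most like each Th1 gene by Pearson r of log2 CPM were found among 11506 candidates, as a description, since every library shares the gap between effector and naive cells. Slamf7, Soat2 and Atp8a2 were nearest to Tbx21 (r = 0.999 each), and Slamf7 and Atp8a2 were also among the 3 nearest to Il12rb2, after Chsy1. Cd44, Il2rb and Cd38 were nearest to Cxcr3, and Il2rb, Klrb1c and Myo1f to Il12rb1. Pak6, Gdf11 and Arhgap26 were nearest to Ifng, with Pak6 at 0.997. Arhgef3 led for Stat4 (0.994), before E2f3 and Rapgef5, and Prrt1 for Runx3 (0.997), before Il18rap and Il12rb2. Hlx had too few counts for such a ranking to be read.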

How the data were processed

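Libraries were prepared with a kit for stranded mRNA sequencing, per the labels' protocols. The authors deposited raw counts, whole numbers per gene, per the file headers. The deposited FPKM values equal these counts divided by gene length and a size factor, as checked on 11921 genes with at least 20 counts in every library. Per the submitters' processing notes, STAR, Picard and DESeq2 1.30.0 were used; their roles and the counter are not stated there. Column names give the group without a replicate number, so libraries carry the number of their column.

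Tests were run on the counts with edgeR 4.0.16 in R 4.3.3. The function filterByExpr kept 15905 genes, TMM factors ran from 0.968 to 1.04, and 1 robust quasi-likelihood model held all 12 libraries, with a coefficient per group. The biological coefficient of variation was 5.21%. The Benjamini-Hochberg adjustment ran over every tested gene, with a threshold of 0.05. Standard errors were derived from the F statistic, and intervals are at 95%. Where a group had 0 counts, its limit was set at 3 counts over that group, for counting error only. CPM are TMM-normalised. Within groups, libraries differed beyond sampling noise (chi-square per gene of 2.25 to 5.92), and each was kept as 1 replicate.

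The Th1 genes and lists were chosen with earlier results of these data known. All 8 Th1 genes are named whatever their values. Of each list, up to 4 called genes by smallest p are named per comparison, plus a few lineage and sort genes, and the 3 most similar genes by Pearson r of log2(CPM + 0.5) among those with at least 5 CPM in a group. Serbp1 was named for its overlap. Some genes that the rule would name are not reported here. Of 11 innate-like lymphocyte markers (NK, NKT, gamma-delta T), 9 were matched. The code was tested on simulated data. Alternatives were limma-voom (limma 3.58.1), DESeq2 1.42.0, edgeR with the size factors of DESeq2, no filter, a mean of at least 5 CPM, only the groups compared, limma on log2(FPKM + 1) and log2(FPKM + 0.1), and leaving out each of the 12 libraries.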

Additional observations from a re-analysis of the deposited data

Results flagged for a closer look

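Ccl5, a chemokine on the list of T-bet-linked genes, had KO effects that differed between effector and naive cells in the test of the difference itself. The difference, effector minus naive, was -2.25 on the log2 scale (edgeR adjusted p = 0.0187). In effector cells Ccl5 was at 221, 205 and 193 CPM in KO and 242, 278 and 284 CPM in WT libraries, and in naive cells at 1.47, 1.15 and 1.95 CPM in KO and 0.210, 0.537 and 0.498 CPM in WT libraries. The difference was past the threshold in 13 of 19 alternative settings. It was lost with limma-voom (adjusted p = 0.105), with limma on log2(FPKM + 0.1) (0.173), and without KO effector library 11 (0.0596), KO naive library 7 (0.0838) or WT naive library 1 (0.0586) or 2 (0.0607). The naive values rest on 27 to 38 counts per KO and 4 to 10 per WT library. The part of the innate-like, B cell and myeloid markers in those values was not tested.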

How the results depend on the processing

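Directions of the Th1 genes were stable in effector cells: all 7 tested kept their sign against WT in every alternative that tested them, and all kept their sign between effector and naive cells. Genes called in KO effector cells numbered 503, and 959 with no filter, 230 with only the groups compared, 262 and 139 with limma on log2 FPKM with 1 and 0.1 added, and 194 to 662 when 1 library was left out; it fell by over 1.5 times without KO effector library 11 (194) or WT effector library 5 (270) or 6 (267). In KO naive cells 187 were called, and 501, 528, 40 and 57 under the same alternatives, and 66 to 255 with 1 library left out, with 124, 66 and 84 without KO naive libraries 7, 8 and 9 and 72 without WT naive library 2. The difference between the cell types called 23, and 52 with DESeq2, 277 with no filter, 13 and 8 with limma on log2 FPKM, and 10 to 85 with 1 library left out: 47, 39 and 85 without KO effector library 10 or 12 or WT effector library 4, and 10 to 15 without WT effector library 6, any KO naive library or WT naive library 2.

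Of the Th1 genes, the 2 called lower in effector cells were 3 with DESeq2 and with no filter, 1 with only the groups compared, 1 and 0 with limma on log2 FPKM, and 1 to 2 with 1 library left out. The 1 called higher in naive cells was 0 with limma-voom, only the groups compared and both FPKM fits, and 0 to 1 with 1 library left out. The 0 for the difference became 1 with DESeq2 and with no filter. Signs turned in naive cells with 1 library left out for Ifng (-0.66 to 0.83; without KO naive library 8 or WT naive library 1), Stat4 (-0.046 to 0.029; without KO naive library 7 or 9 or WT naive library 1 or 3) and Runx3 (-0.0026 to 0.045; without WT naive library 1), all far from the threshold, and in the difference for Ifng (0.31 with limma-voom, -1.21 to 0.29 with 1 library left out, above 0 without WT effector library 5, KO naive library 7 or 9 or WT naive library 2). The cause was not tested. Leaving out a library of either cell type changes the shared estimate of the spread and, in that library's group, leaves 2 samples. Depth limits the naive values of Tbx21, Ifng, Cxcr3 and Il12rb2 and every value of Hlx. No paired analysis was possible because the column names carry no replicate number that could tie libraries across groups.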
